A study of Mus musculus with 8 samples.

Results

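The collagen genes of the mouse were followed in RNA-seq of the incisor, at its cervical loop (CL), the end from which the tooth grows. A gene was a member if its row carried a name made of Col, a number, the letter a and a number, leaving out *Col17a1*, and *Emid2*, the older name of *Col26a1*, was added. This gave 43 of the 23358 genes in the table, of which 11 encode chains of fibrillar collagens, 9 FACIT collagens (fibril-associated collagens with interrupted triple helices), 6 the basement membrane collagen type IV, 6 the beaded filament collagen type VI, 3 network-forming collagens, 3 transmembrane collagens, 2 multiplexins, 1 the anchoring fibril collagen type VII and 2 other collagens. All mice were on a C57BL/6 background, 4 weeks old and carried floxed *Med1*, which encodes a subunit of the Mediator complex. In the *Med1* cKO mice, Cre recombinase driven by the keratin promoter *Krt14* removed part of *Med1* from epithelial cells, and their littermates without Cre were the controls (Ctrl). RNA came from the head of the CL (CLH), which holds the dental epithelial stem cells, or from its tail (CLT), which holds their progenies. Each of the 4 groups (Ctrl CLH, cKO CLH, Ctrl CLT and cKO CLT) had 2 libraries, from 2 litters, and per the study CL tissues were pooled within each group. The Cre driver acts in epithelium, whereas most collagen in teeth is made by mesenchymal cells, and the dissected tissue held both.

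Collagens are the main proteins of connective tissue. Every collagen chain carries runs of the repeat glycine-X-Y, and chains wind around each other into a stiff helix. Types I, III and V form the fibrils of dentin, bone, skin and ligament, types II, IX and XI those of cartilage, type IV forms the sheet under every epithelium, and type VI forms fine filaments around cells. In the incisor, odontoblasts secrete type I collagen for dentin, while the dental epithelium rests on a type IV sheet.

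The repeat shows in the genes themselves, and 2 exons of genes that recur below are printed to show it. Each is 54 bases long, so that it adds a whole number of repeats, and its 6 glycine codons are in capitals. The first is coding exon 15 of *Col11a2* (mm10, chr17:34051480-34051533, plus strand) and the second is coding exon 5 of *Col9a2* (mm10, chr4:121043696-121043749, plus strand).
Col11a2: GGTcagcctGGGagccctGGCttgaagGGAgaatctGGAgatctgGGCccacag
Col9a2: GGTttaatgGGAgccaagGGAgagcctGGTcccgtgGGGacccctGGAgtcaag

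Exons of this length made up 305 of the 627 internal coding exons of the fibrillar genes (48.64%), 109 of 414 in the FACIT genes (26.33%) and 12 of 284 in the type IV genes (4.225%). In all other protein-coding genes of the GENCODE M21 annotation they were 701 of 157234 (0.4458%). *Col8a1*, *Col8a2* and *Col10a1* had no internal coding exon. The share of such exons thus differed by class. As every collagen chain carries the repeat, this describes the members and is not independent of how they were chosen.

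Several members are neighbours. The 6 type IV genes lie in 3 head-to-head pairs, with *Col4a1* and *Col4a2* on chromosome 8 separated by 2 bases, *Col4a4* and *Col4a3* on chromosome 1 by 71 bases, and *Col4a6* and *Col4a5* on chromosome X by 1342 bases. *Col3a1* and *Col5a2* on chromosome 1 lie tail to tail, 24.62 kb apart. *Col6a6*, *Col6a5* and *Col6a4* follow each other on the same strand of chromosome 9. Annotated exons of other genes overlap those of *Col3a1*, *Col4a3*, *Col7a1*, *Col10a1*, *Col15a1* and *Col20a1* among others, and with no strand setting given in the sources used here their reads are uncertain there.

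RefSeq promoter windows, from 250 bases before to 50 after a gene's start (GRCm38.p6, the build of mm10), were given for 34 of the 43 members, in 37 windows. Printed below are the windows of *Col9a2*, *Col11a2* and *Col27a1*, genes that were lower together in cKO CLT, and the window of *Col4a1*. Each is on the strand of the named gene, with matches to the searched motifs in capitals. Col9a2 lies at chr4:121039316-121039615 (plus strand), Col11a2 at chr17:34038888-34039187 (plus strand), Col27a1 at chr4:63215162-63215461 (plus strand) and Col4a1 at chr8:11312777-11313076 (minus strand).
Col9a2: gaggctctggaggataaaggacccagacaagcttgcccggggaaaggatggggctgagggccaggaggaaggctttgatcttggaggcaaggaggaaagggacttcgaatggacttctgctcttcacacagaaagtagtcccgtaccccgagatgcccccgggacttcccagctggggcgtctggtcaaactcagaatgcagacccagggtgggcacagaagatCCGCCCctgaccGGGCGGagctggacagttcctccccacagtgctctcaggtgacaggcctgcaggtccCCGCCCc
Col11a2: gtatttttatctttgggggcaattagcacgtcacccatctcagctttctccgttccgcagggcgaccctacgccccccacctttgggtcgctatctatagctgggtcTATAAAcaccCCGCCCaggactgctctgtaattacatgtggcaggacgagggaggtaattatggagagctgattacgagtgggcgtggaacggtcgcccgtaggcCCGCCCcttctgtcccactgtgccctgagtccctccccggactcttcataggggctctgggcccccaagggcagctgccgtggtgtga
Col27a1: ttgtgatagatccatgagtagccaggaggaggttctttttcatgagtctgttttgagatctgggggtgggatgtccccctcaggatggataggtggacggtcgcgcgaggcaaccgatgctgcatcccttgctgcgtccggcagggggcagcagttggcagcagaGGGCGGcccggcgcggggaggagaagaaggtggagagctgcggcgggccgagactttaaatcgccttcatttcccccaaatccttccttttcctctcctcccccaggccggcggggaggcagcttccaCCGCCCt
Col4a1: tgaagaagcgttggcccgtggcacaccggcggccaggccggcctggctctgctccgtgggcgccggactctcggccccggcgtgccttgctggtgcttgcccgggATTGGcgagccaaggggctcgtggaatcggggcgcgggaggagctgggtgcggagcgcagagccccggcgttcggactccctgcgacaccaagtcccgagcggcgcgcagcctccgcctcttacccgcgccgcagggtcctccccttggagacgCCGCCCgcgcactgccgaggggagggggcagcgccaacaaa

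Both strands were searched for TATAAA of the core promoter, for CCAAT, for GGGCGG of Sp factors, for TGTGGT of Runx factors and for TGANTCA of AP-1, whose matches do not overlap in the printed windows. GGGCGG was found in 62.2% of the members' windows and in 35.7% of all 32851 windows, at a median GC content of 60% in the members' windows against 52.7% in all. CCAAT was in 32.4% against 37.4%, TATAAA in 10.8% against 13.6%, TGTGGT in 5.41% against 16.8%, and TGANTCA in 2.7% against 7.81%. *Col9a2*, *Col11a2*, *Col27a1* and *Col4a1* each held GGGCGG, and *Col11a2* alone of these held TATAAA. These matches describe the letters in the windows and nothing more.

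The deposited values were RPKM (reads scaled by gene length and library size), so levels of different genes are compared per length. The libraries held 22330512 to 28651106 reads on genes. *Med1* itself stood at 4.83 and 8.71 RPKM in Ctrl CLT, 9.15 and 8.96 in cKO CLT, and in CLH at 7.71 and 9.12 for Ctrl and 7.10 and 7.03 for cKO, a value that sums exons inside and outside the deleted part over cells with and without Cre and so does not check the deletion. The Ctrl CLT libraries stood apart from each other. The median size of the log2 difference between the 2 libraries of a group was 0.404 over all genes in Ctrl CLT and 0.0922 to 0.113 in the other groups, and 22 of the 39 collagen genes tested differed by over 1.5-fold between the Ctrl CLT libraries, against 0 in each other group. Ctrl CLT 1 lay between Ctrl CLT 2 and the cKO CLT mean for 28 of the 39 collagen genes (71.8%) and for 59% of all genes tested, so results in CLT are given with and without each of these libraries.

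Markers of other tissues differed along with the groups in CLT. The summed RPKM of 6 odontoblast and bone markers (*Dspp*, *Dmp1*, *Bglap*, *Ibsp*, *Sp7* and *Phex*) was 973 to 1265 in the CLH libraries, 1115 and 1228 in Ctrl CLT, but 1.43 and 1.13 in cKO CLT, with *Ibsp* at 0 in both. The 6 ameloblast markers summed to 84430 and 37300 in Ctrl CLT and to 19.4 and 15.5 in cKO CLT. The 5 skeletal muscle markers summed to 536 and 36.5 in Ctrl CLT and to 1492 and 1678 in cKO CLT, against 20.8 to 26.7 in CLH. The tail of the cKO incisor thus held almost no transcripts of the matrix-secreting cells of the tooth and many of muscle, and the Ctrl CLT 1 library held more of muscle than Ctrl CLT 2.

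The 7 mesenchyme and fibroblast markers summed to 517 and 1295 in Ctrl CLT but 237 and 239 in cKO CLT, and the 4 Schwann cell markers to 35.4 and 30.0 in Ctrl CLT but 94.2 and 96.4 in cKO CLT. The 6 cartilage markers summed to 6.31 and 33.3 in Ctrl CLT and to 0.614 and 0.632 in cKO CLT, with *Matn1* at 0 in all libraries and *Matn3* also at 0 in both cKO CLT libraries. The 6 endothelial markers summed to 62.8 and 96.7 in Ctrl CLT, next to 60.3 and 59.8 in cKO CLT, the 5 smooth muscle and pericyte markers to 121 and 185 and to 125 and 134, and the 4 leukocyte markers to 115 and 158 and to 94.2 and 89.0. Without overlap, 3 of the 6 endothelial markers were lower in cKO CLT and 1 (*Pecam1*) higher. Of the 5 smooth muscle and pericyte markers, 3 were lower without overlap and 1 (*Myh11*) higher. Of the 5 markers listed for dental epithelium, 4 were higher in cKO CLT without overlap (*Krt14*, *Krt5*, *Cdh1* and *Epcam*). The list, whose sum came mostly from *Krt5* and *Krt14*, had 1319 and 824 in Ctrl CLT against 1688 and 1916 in cKO CLT. Per the study KRT14 also marks the outer root sheath of hair follicles, so this sum does not tell dental from other epithelium. In the CLH libraries every one of these sums was within 1.5-fold between Ctrl and cKO. The part of any of these tissues in the collagen results was not tested, and fewer cells of a type and less RNA per cell cannot be told apart in such tissue.

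**Figure D1:**
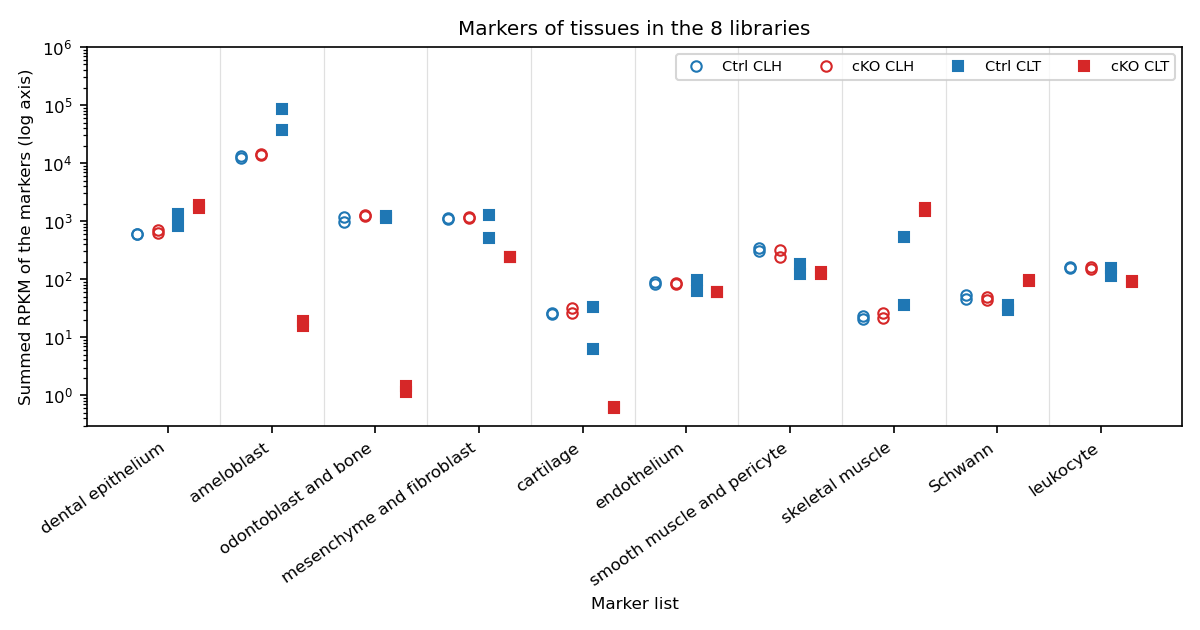
Summed RPKM (log axis) of each marker list in the 8 libraries, with open circles for CLH, filled squares for CLT, blue for Ctrl and red for cKO. In cKO CLT the odontoblast and bone sum was 1.43 and 1.13 and the skeletal muscle sum 1492 and 1678.

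Collagen transcripts took a large share of each library. The 43 genes held 1.84% and 2.37% of the reads on genes in Ctrl CLT, 1.52% and 1.71% in cKO CLT, while in CLH they held 2.58% and 2.30% for Ctrl and 2.96% and 2.93% for cKO. The share was thus highest in cKO CLH and lowest in cKO CLT, without overlap with the other groups. Of the 43 genes, 35 to 38 reached 1 RPKM in the libraries other than cKO CLT, and 27 and 29 did so in cKO CLT. *Col1a1* ranked 5th to 25th among all genes in those other libraries, and 147th and 124th in cKO CLT, where *Col3a1*, ranked 48th and 46th, had the highest level of all collagens. No collagen gene was at 0 in any library.

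**Figure D2:**
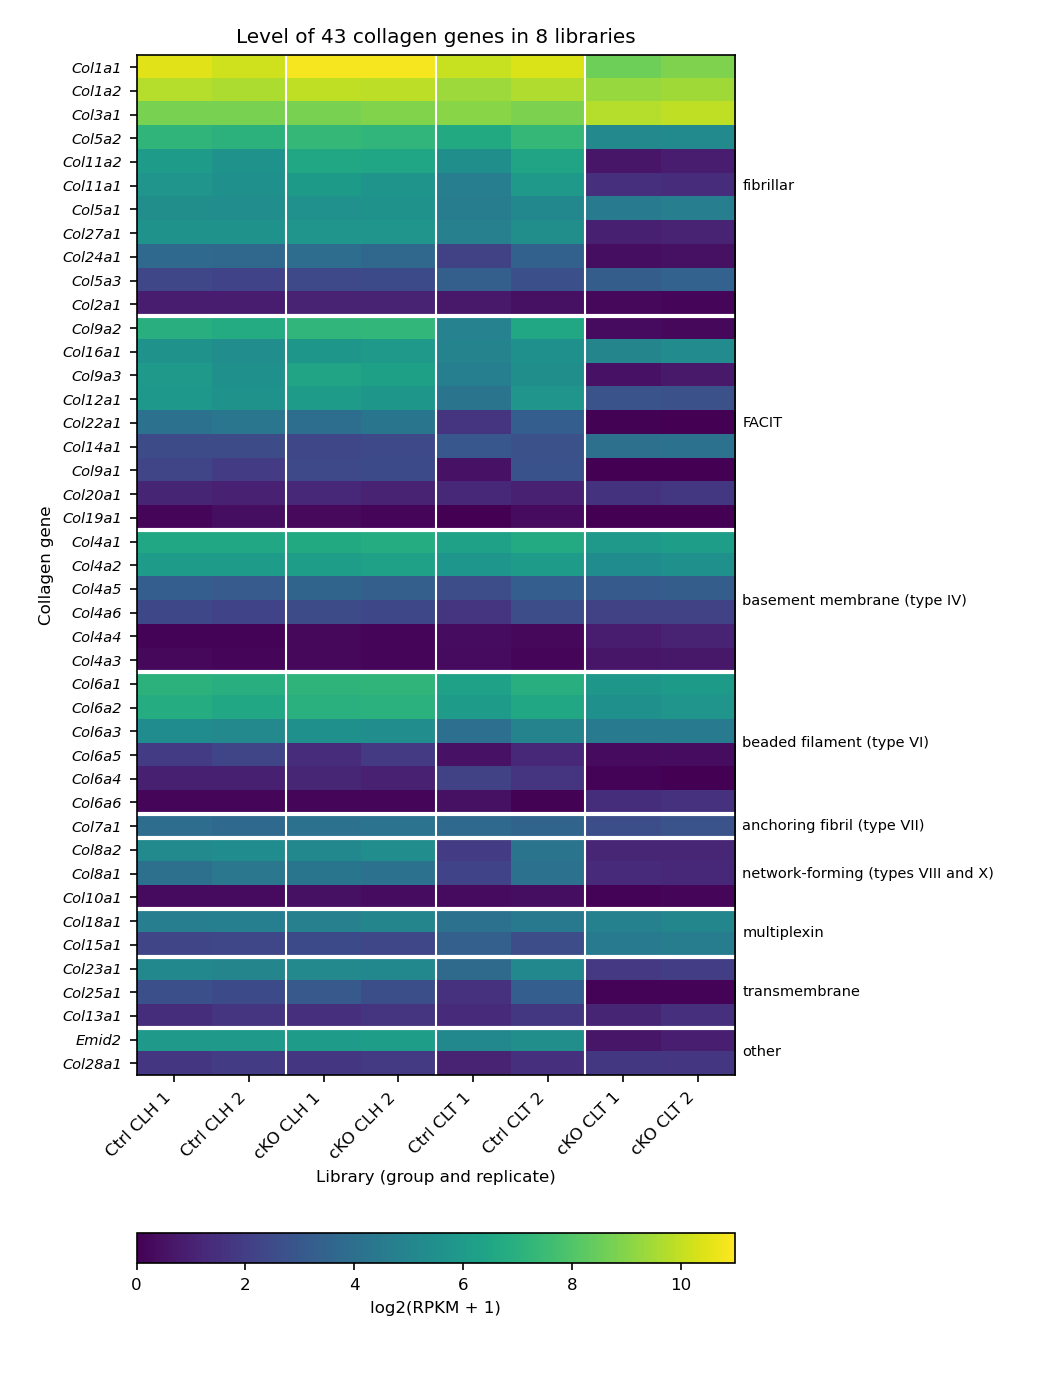
Level of each collagen gene (rows, grouped by class and ordered by mean) in each library (columns), as log2(RPKM + 1). The dark cells in the cKO CLT columns are members such as *Col9a2*, *Col11a2* and *Emid2* that fell under 1 RPKM there.

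The loss of *Med1* was then compared in CLT, the tail with the progenies. In cKO CLT, 5 collagen genes fell and 0 rose at an adjusted p under 0.05 (limma on log2(RPKM + 1), Benjamini-Hochberg adjustment over the 14148 genes tested), where 1.68% of all genes tested fell and 0.0777% rose. The 5 were *Col9a2* and *Col9a3* of type IX, *Col11a2* of type XI, *Col27a1* and *Emid2*, and all stood at about 1 RPKM or less in cKO CLT. At an unadjusted p under 0.05, 18 were lower and 5 higher, against 16.4% and 19.8% of all genes, and by voom on the recovered reads 0 passed in either direction. Without regard to a test, 24 of the 39 collagen genes tested were lower in both cKO CLT libraries than in both Ctrl CLT libraries and 7 were higher, against 35.1% and 37.2% of all genes. The median log2 fold change of the 39 was -0.68, beside -0.01 over all genes.

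*Col9a2* and *Col9a3* encode chains of type IX collagen, which coats the surface of type II fibrils. *Col9a2* stood at 28.3 and 93.7 RPKM in Ctrl CLT, 0.247 and 0.174 in cKO CLT, against 119 and 106 for Ctrl CLH and 149.7 and 156 for cKO CLH. The cKO CLT values rest on 19 and 13 reads. The cKO CLT libraries lay far under all others, and the mean was 290.0-fold lower than in Ctrl CLT (log2 fold change of -5.44 with SE 0.62 and adjusted p = 0.049). *Col9a3* was at 25.5 and 43.6 RPKM in Ctrl CLT, 0.439 and 0.696 in cKO CLT, against 58.6 and 44.6 for Ctrl CLH and 84.8 and 74.3 for cKO CLH, again without overlap (log2 fold change of -4.46 with SE 0.32 and adjusted p = 0.031). The annotation places exons of *Tcfl5* on the other strand within *Col9a3*, and the strand setting of the counting was not given in the sources used here. The chain that completes type IX, *Col9a1*, was measured at 0.466 and 5.76 RPKM in Ctrl CLT, 0.0275 and 0.00943 in cKO CLT, against 3.93 and 2.76 for Ctrl CLH and 4.46 and 4.48 for cKO CLH. The cKO CLT values rest on 3 reads and 1 read. The Ctrl CLT libraries differed more for this gene than for its partners, and its change was not past the threshold (log2 fold change -1.63, adjusted p = 0.22).

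*Col11a2* encodes a chain of type XI, a minor collagen inside cartilage fibrils, and *Col27a1* a fibrillar collagen of cartilage and developing teeth. For *Col11a2* the libraries gave 43.8 and 85.4 RPKM in Ctrl CLT, 0.585 and 0.765 in cKO CLT, against 66.6 and 48.3 for Ctrl CLH and 96.7 and 86.6 for cKO CLH. Both cKO CLT values were the lowest of the 8, 95.7-fold under the Ctrl CLT mean (log2 fold change of -5.22 with SE 0.37 and adjusted p = 0.031). *Col27a1* gave 26.7 and 42.1 RPKM in Ctrl CLT, 0.958 and 1.11 in cKO CLT, against 47.9 and 48.7 for Ctrl CLH and 52.1 and 52.8 for cKO CLH, with a mean 33.3-fold lower (log2 fold change of -4.09 with SE 0.27 and adjusted p = 0.031). *Col11a1*, the partner chain of *Col11a2*, was at a similarly low level there, with 25.3 and 60.9 RPKM in Ctrl CLT, 1.77 and 1.65 in cKO CLT, against 51.9 and 44.5 for Ctrl CLH and 62.3 and 51.1 for cKO CLH, but its difference missed the threshold (log2 fold change of -3.90 with SE 0.46 and adjusted p = 0.052). *Emid2*, which encodes a secreted collagen with an EMI domain (type XXVI), was measured at 34.0 and 41.7 RPKM in Ctrl CLT, 0.567 and 0.895 in cKO CLT, against 61.6 and 58.7 for Ctrl CLH and 65.8 and 69.5 for cKO CLH. Of the 5 it had the smallest SE and the smallest adjusted p (log2 fold change of -4.49 with SE 0.21 and adjusted p = 0.02).

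Each of the 5 genes stayed lower in cKO CLT with either Ctrl CLT library left out. Without Ctrl CLT 1 their log2 fold changes ran from -6.29 (*Col9a2*) to -4.41 (*Col27a1*), and without Ctrl CLT 2 from -4.74 (*Col11a2*) to -3.77 (*Col27a1*). Those fits took the spread of the lone Ctrl CLT library from the other groups, unlike the main fit. They therefore cannot show whether the 5 calls hold. All 5 calls were lost without a filter on low values and with voom on the reads (adjusted p from 0.055 to 0.12), with the fold changes in the same direction. Their adjusted p ran from 5.6e-05 to 0.12 over the alternatives that used all libraries of the comparison.

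**Figure D3:**
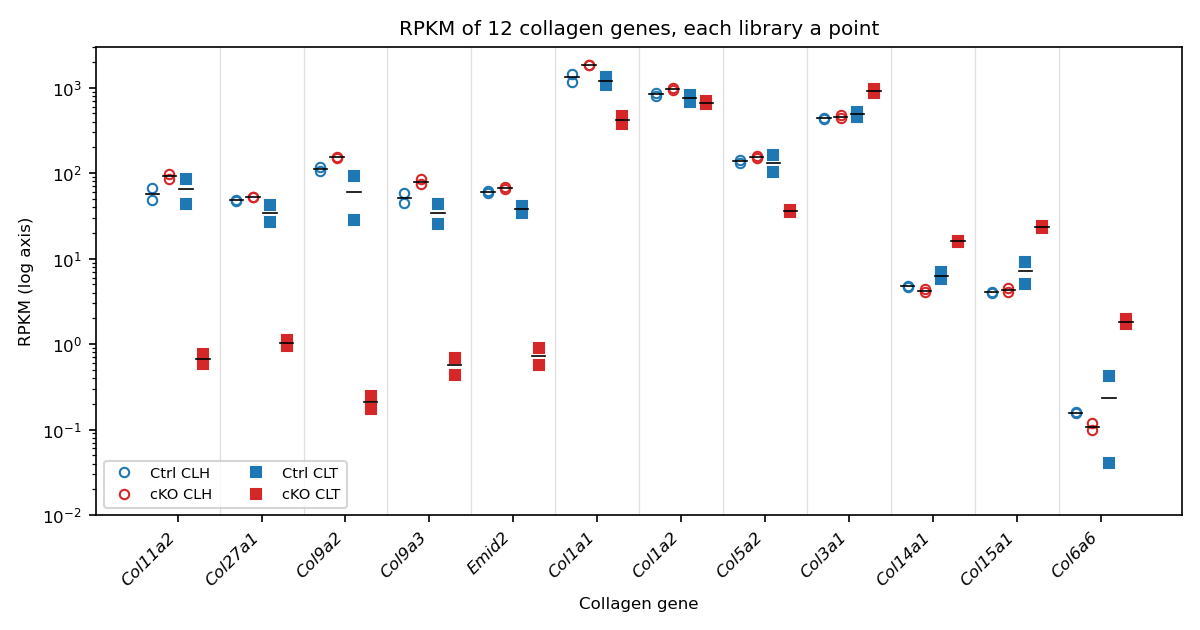
RPKM (log axis) of 12 collagen genes in each library, with open circles for CLH, filled squares for CLT, blue for Ctrl, red for cKO and a bar at the mean of 2 libraries. The first 5 genes drop to about 1 RPKM or less in cKO CLT, while *Col3a1*, *Col14a1*, *Col15a1* and *Col6a6* are higher there than in every other library.

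The fibrillar collagens of type I, III and V were the most abundant. *Col1a1* and *Col1a2* encode both chains of type I, the main collagen of dentin, bone and skin. *Col1a1* stood at 1067 and 1335 RPKM in Ctrl CLT, 376 and 472 in cKO CLT, against 1469 and 1178 for Ctrl CLH and 1865 and 1839 for cKO CLH. Its cKO CLT libraries lay under all others, 2.83-fold below Ctrl CLT, with a difference that missed the threshold (log2 fold change of -1.50 with SE 0.23 and adjusted p = 0.062). *Col1a2* stood at 674 and 831 RPKM in Ctrl CLT, 639 and 699.6 in cKO CLT, against 876 and 796 for Ctrl CLH and 986 and 944 for cKO CLH, and its CLT groups overlapped (with a log2 fold change of -0.16 with SE 0.20 and adjusted p = 0.58).

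The genes of both type I chains therefore parted in cKO CLT. Within a library, *Col1a1* over *Col1a2* was 1.58 and 1.61 in Ctrl CLT but 0.59 and 0.674 in cKO CLT, while in CLH it was 1.68 and 1.48 for Ctrl and 1.89 and 1.95 for cKO. *Col1a2* was the higher of the pair in both cKO CLT libraries and in no other library. Such a ratio does not depend on how a library was scaled. It is given as a description, since with 2 against 2 libraries an exact permutation test cannot give a two-sided p under 0.333.

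*Col3a1*, whose type III collagen joins type I in soft and elastic tissue, differed in sign from type I. It stood at 527 and 456 RPKM in Ctrl CLT, 874 and 979 in cKO CLT, against 436 and 441 for Ctrl CLH and 444 and 476 for cKO CLH, with both cKO CLT libraries above all others (log2 fold change of 0.91 with SE 0.19 and adjusted p = 0.075). The ratio of *Col3a1* to *Col1a1*, added after the values were seen, was 0.238 to 0.494 in the other libraries and 2.32 and 2.08 in cKO CLT. *Col3a1* was the higher of the pair in both cKO CLT libraries and in no other library.

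The type V chains, which set the width of type I fibrils, also parted. *Col5a2* stood at 103 and 161 RPKM in Ctrl CLT, 35.3 and 37.1 in cKO CLT, against 144 and 133 for Ctrl CLH and 158 and 150.03 for cKO CLH, so that it was lower in cKO CLT without overlap (log2 fold change of -1.80 with SE 0.26 and adjusted p = 0.061). *Col5a1* was at 23.5 and 34.1 RPKM in Ctrl CLT, 22.9 and 25.1 in cKO CLT, against 42.7 and 40.7 for Ctrl CLH and 46.6 and 48.1 for cKO CLH. *Col5a3*, a chain of fewer tissues, was at 9.19 and 5.46 RPKM in Ctrl CLT, 8.46 and 10.05 in cKO CLT, against 4.07 and 3.69 for Ctrl CLH and 4.45 and 4.58 for cKO CLH. Both overlapped between the CLT groups. The ratio of *Col5a1* to *Col5a2* was 0.295 to 0.321 in CLH, 0.228 and 0.212 in Ctrl CLT but 0.649 and 0.678 in cKO CLT. Exons of other annotated genes lie on the other strand within *Col5a1*.

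Of the remaining fibrillar genes, *Col24a1* was at 3.40 and 9.71 RPKM in Ctrl CLT, 0.335 and 0.401 in cKO CLT, against 12.6 and 12.3 for Ctrl CLH and 14.2 and 12.1 for cKO CLH (log2 fold change of -2.33 with SE 0.48 and adjusted p = 0.076). *Col2a1*, the main collagen of cartilage, was low throughout, at 0.693 and 0.403 RPKM in Ctrl CLT, 0.167 and 0.129 in cKO CLT, against 0.838 and 0.848 for Ctrl CLH and 1.11 and 1.14 for cKO CLH. The cartilage collagen that types IX and XI accompany in cartilage was thus near 1 RPKM or less in all 8 libraries. In all, 2 of the 11 fibrillar genes fell in CLT, where 1.68% of all genes did, 7 were lower without overlap and 1 higher, against 35.1% and 37.2% of all genes, with a median log2 fold change of -1.50.

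**Figure D4:**
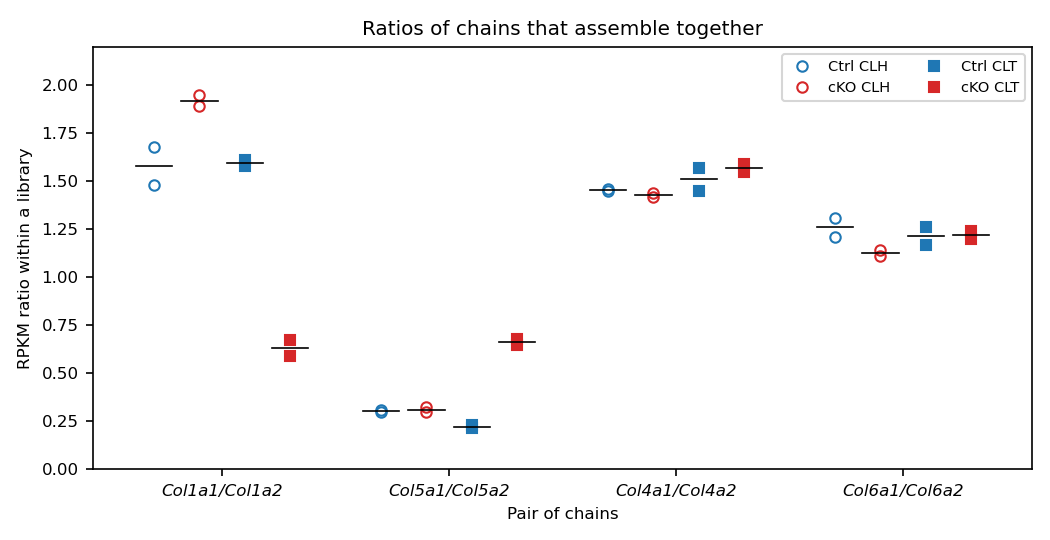
Ratio of the RPKM of chains that assemble together, within each library (linear axis from 0), with open circles for CLH, filled squares for CLT, blue for Ctrl, red for cKO and a bar at the mean. In cKO CLT *Col1a1* over *Col1a2* is 0.59 and 0.674 and *Col5a1* over *Col5a2* is 0.649 and 0.678, while the type IV and type VI ratios stay between 1.11 and 1.59 in all libraries.

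FACIT collagens sit on the surface of fibrils and link them to other matrix. Besides the type IX genes, *Col12a1*, found in dense connective tissue and periodontal ligament, stood at 17.6 and 52.3 RPKM in Ctrl CLT, 6.02 and 5.69 in cKO CLT, against 58.0 and 49.6 for Ctrl CLH and 66.7 and 56.1 for cKO CLH (log2 fold change of -2.20 with SE 0.55 and adjusted p = 0.09). *Col22a1*, a collagen of tissue junctions such as that of muscle and tendon, was at 2.27 and 8.70 RPKM in Ctrl CLT, 0.0466 and 0.0179 in cKO CLT, against 16.0 and 18.8 for Ctrl CLH and 14.7 and 18.3 for cKO CLH, with cKO CLT resting on 8 and 3 reads (log2 fold change of -2.45 with SE 0.58 and adjusted p = 0.084), and exons of another gene lie on its other strand. *Col16a1* was at 29.1 and 45.6 RPKM in Ctrl CLT, 31.2 and 38.0 in cKO CLT, against 48.6 and 40.9 for Ctrl CLH and 56.0 and 60.2 for cKO CLH, so that its CLT groups overlapped. *Col14a1*, a regulator of fibril growth in skin and tendon, was at 6.89 and 5.70 RPKM in Ctrl CLT, 15.8 and 16.0 in cKO CLT, against 4.68 and 4.78 for Ctrl CLH and 4.02 and 4.40 for cKO CLH. Both cKO CLT libraries were at least 2-fold above every other library (log2 fold change of 1.22 with SE 0.17 and adjusted p = 0.06). *Col20a1* was at 1.40 and 0.996 RPKM in Ctrl CLT, 2.04 and 2.48 in cKO CLT, against 1.19 and 1.04 for Ctrl CLH and 1.36 and 1.15 for cKO CLH, also higher in cKO CLT without overlap (log2 fold change of 0.57 with SE 0.21 and adjusted p = 0.14). Of the 8 FACIT genes tested 2 fell, where 1.68% of all genes did, and 5 were lower without overlap and 2 higher, against 35.1% and 37.2% of all genes.

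Type IV collagen forms the basement membrane under epithelium and around muscle, nerve and vessels. *Col4a1* stood at 78.4 and 104 RPKM in Ctrl CLT, 60.9 and 70.4 in cKO CLT, against 96.8 and 95.7 for Ctrl CLH and 101 and 111 for cKO CLH. *Col4a2*, its head-to-head partner, stood at 54.2 and 65.9 RPKM in Ctrl CLT, 39.2 and 44.3 in cKO CLT, against 66.4 and 66.0 for Ctrl CLH and 71.1 and 77.0 for cKO CLH. Both were lower in both cKO CLT libraries than in any other, by far less than the type IX and XI genes (log2 fold changes -0.46 and -0.51, adjusted p = 0.19 and 0.13). Their ratio was 1.42 to 1.59 in all 8 libraries. Annotated exons of the pair overlap on opposite strands. *Col4a5* was at 5.09 and 8.68 RPKM in Ctrl CLT, 7.78 and 8.42 in cKO CLT, against 8.70 and 8.03 for Ctrl CLH and 10.6 and 9.02 for cKO CLH. *Col4a6* was at 2.19 and 5.11 RPKM in Ctrl CLT, 3.36 and 3.37 in cKO CLT, against 4.26 and 3.65 for Ctrl CLH and 4.73 and 4.29 for cKO CLH. For *Col4a5* the cKO CLT libraries lay inside the range of the Ctrl CLT libraries, as they did for *Col4a6*. The sign for *Col4a6* turned with the Ctrl CLT library left out: -0.485 without Ctrl CLT 1 and 0.452 without Ctrl CLT 2.

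*Col4a3* and *Col4a4*, whose chains replace the common ones in kidney and lung, were too low to be tested. *Col4a4* was measured at 0.289 and 0.188 RPKM in Ctrl CLT, 0.822 and 1.11 in cKO CLT, against 0.093 and 0.0667 for Ctrl CLH and 0.178 and 0.121 for cKO CLH. *Col4a3* was measured at 0.238 and 0.105 RPKM in Ctrl CLT, 0.609 and 0.639 in cKO CLT, against 0.179 and 0.147 for Ctrl CLH and 0.165 and 0.118 for cKO CLH. Each was highest in both cKO CLT libraries, on 147 to 236 reads. Of the 4 type IV genes tested, 0 passed the threshold in either direction.

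Type VI collagen forms filaments around cells, from the chains of *Col6a1*, *Col6a2* and a long chain such as that of *Col6a3*. *Col6a1* stood at 77.5 and 117 RPKM in Ctrl CLT, 55.9 and 62.3 in cKO CLT, against 134 and 122 for Ctrl CLH and 140.0 and 148 for cKO CLH. *Col6a2* stood at 66.3 and 93.4 RPKM in Ctrl CLT, 44.9 and 52.0 in cKO CLT, against 111 and 93.5 for Ctrl CLH and 126 and 129 for cKO CLH. Both were lower in cKO CLT without overlap (log2 fold changes -0.68 and -0.69, adjusted p = 0.14 and 0.12), and their ratio was 1.11 to 1.31 throughout. *Col6a3* was at 15.4 and 28.9 RPKM in Ctrl CLT, 21.7 and 22.8 in cKO CLT, against 40.3 and 35.5 for Ctrl CLH and 45.3 and 41.4 for cKO CLH, where the CLT groups overlapped. Its log2 fold change was -0.363 without Ctrl CLT 1 (adjusted p = 0.015) and 0.504 without Ctrl CLT 2 (adjusted p = 0.0044).

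The other long chains of type VI differed among themselves. *Col6a4* was at 3.35 and 2.28 RPKM in Ctrl CLT, 0.0623 and 0.00493 in cKO CLT, against 0.929 and 0.955 for Ctrl CLH and 1.24 and 1.02 for cKO CLH, with cKO CLT resting on 13 reads and 1 read (log2 fold change of -1.87 with SE 0.23 and adjusted p = 0.054). *Col6a6* was at 0.425 and 0.0403 RPKM in Ctrl CLT, 1.72 and 1.94 in cKO CLT, against 0.156 and 0.159 for Ctrl CLH and 0.0991 and 0.118 for cKO CLH, with both cKO CLT libraries above all others (log2 fold change of 1.22 with SE 0.24 and adjusted p = 0.073). *Col6a5* was at 0.43 and 1.43 RPKM in Ctrl CLT, 0.234 and 0.292 in cKO CLT, against 2.71 and 3.91 for Ctrl CLH and 1.597 and 2.67 for cKO CLH. The 3 genes lie next to each other, yet *Col6a4* and *Col6a6* had opposite signs, and exons of other annotated genes lie on the other strand of both.

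*Col7a1*, whose type VII collagen anchors the epithelial basement membrane to the tissue beneath, was at 12.5 and 10.7 RPKM in Ctrl CLT, 5.25 and 5.99 in cKO CLT, against 14.1 and 12.6 for Ctrl CLH and 16.8 and 17.4 for cKO CLH. The CLT groups did not overlap (log2 fold change of -0.93 with SE 0.18 and adjusted p = 0.07). *Col8a2* and *Col8a1* encode short-chain collagens that form hexagonal lattices. *Col8a2* was at 2.71 and 17.5 RPKM in Ctrl CLT, 1.24 and 1.25 in cKO CLT, against 38.0 and 39.3 for Ctrl CLH and 34.6 and 40.8 for cKO CLH. *Col8a1* was at 3.69 and 16.0 RPKM in Ctrl CLT, 1.53 and 1.36 in cKO CLT, against 15.8 and 19.3 for Ctrl CLH and 18.3 and 16.3 for cKO CLH. Here the Ctrl CLT libraries differed widely, and log2 fold changes of -1.89 and -1.87 came with SE of 0.83 and 0.67. *Col10a1*, the collagen of hypertrophic cartilage, reached at most 0.407 RPKM and was not tested.

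The multiplexins, proteoglycans of basement membranes, were the only class of which both members were higher in cKO CLT. *Col15a1*, abundant in muscle, nerve and vessel basement membranes, stood at 9.22 and 4.999 RPKM in Ctrl CLT, 22.8 and 24.4 in cKO CLT, against 3.98 and 4.10 for Ctrl CLH and 4.57 and 4.05 for cKO CLH (log2 fold change of 1.65 with SE 0.31 and adjusted p = 0.069). *Col18a1*, whose end piece is endostatin, stood at 16.6 and 20.5 RPKM in Ctrl CLT, 27.6 and 32.0 in cKO CLT, against 25.2 and 26.1 for Ctrl CLH and 26.5 and 30.7 for cKO CLH (log2 fold change of 0.66 with SE 0.18 and adjusted p = 0.099). Neither passed the threshold. Ctrl CLT 1, the library with more muscle transcripts, held more *Col15a1* but less *Col18a1* than Ctrl CLT 2, and the part of muscle was not tested.

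The transmembrane collagens span the cell membrane. *Col23a1* stood at 12.9 and 34.5 RPKM in Ctrl CLT, 2.51 and 2.996 in cKO CLT, against 34.0 and 31.0 for Ctrl CLH and 35.6 and 34.1 for cKO CLH (log2 fold change of -2.57 with SE 0.50 and adjusted p = 0.073). *Col25a1*, needed for motor nerves to reach muscle, stood at 1.96 and 8.67 RPKM in Ctrl CLT, 0.0763 and 0.0735 in cKO CLT, against 5.45 and 4.61 for Ctrl CLH and 7.38 and 5.19 for cKO CLH (log2 fold change of -2.32 with SE 0.62 and adjusted p = 0.095). Both were lower in cKO CLT without overlap. *Col13a1*, found at the nerve-muscle junction, was at 1.47 and 2.42 RPKM in Ctrl CLT, 1.19 and 1.85 in cKO CLT, against 1.71 and 2.28 for Ctrl CLH and 1.76 and 2.23 for cKO CLH, where the CLT groups overlapped. *Col28a1*, a collagen of nerve sheaths, was at 1.12 and 1.91 RPKM in Ctrl CLT, 2.41 and 2.37 in cKO CLT, against 2.33 and 2.85 for Ctrl CLH and 2.33 and 2.63 for cKO CLH (log2 fold change of 0.45 with SE 0.24 and adjusted p = 0.24). *Col19a1*, a FACIT member, reached at most 0.314 RPKM and was not tested.

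**Figure D5:**
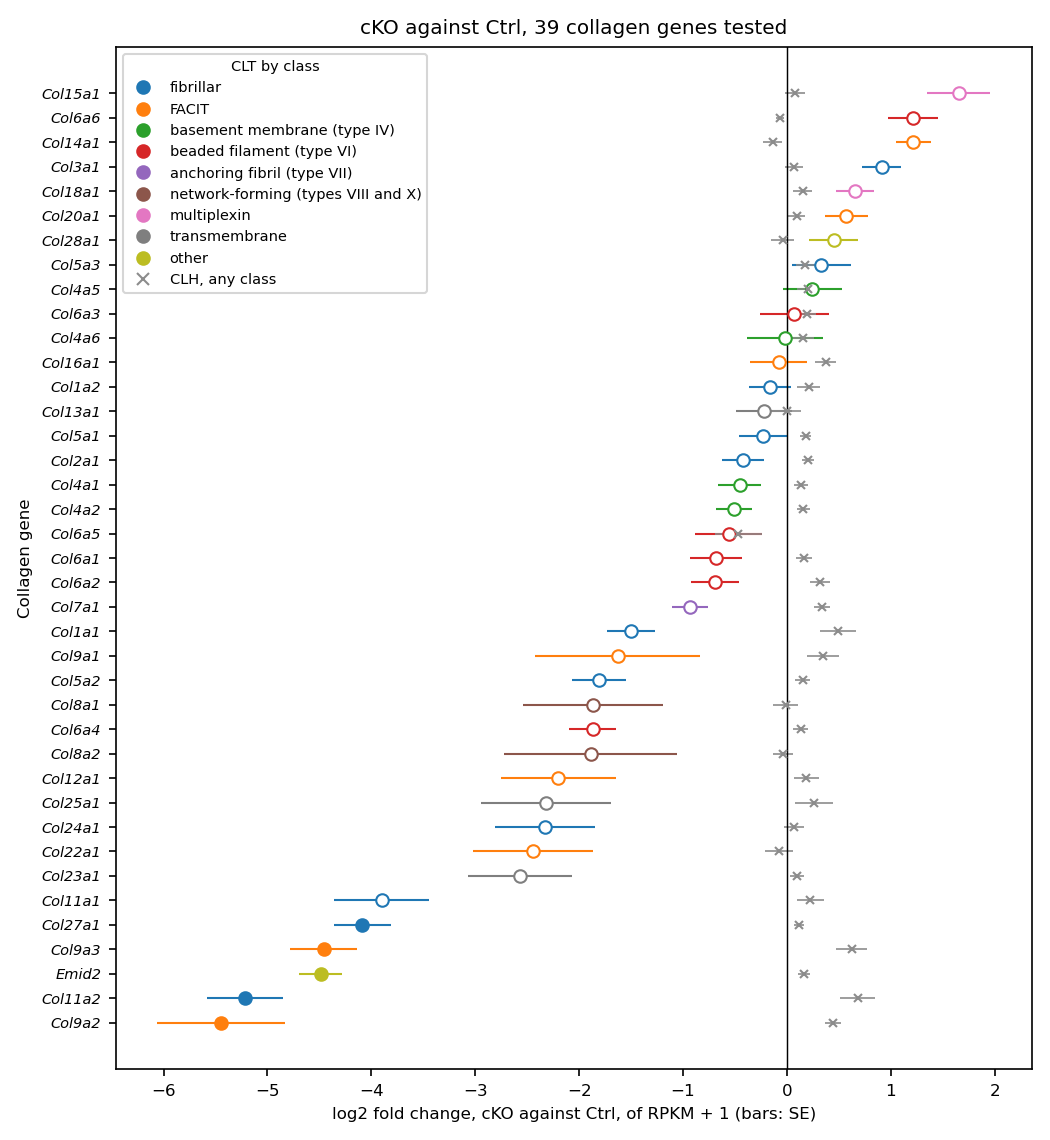
Log2 fold change of cKO against Ctrl on the scale of log2(RPKM + 1) for the 39 collagen genes tested, with SE as bars. Circles give CLT, coloured by class and filled where the adjusted p was under 0.05, and grey crosses give CLH. The CLT values run from -5.44 (*Col9a2*) to 1.65 (*Col15a1*), and the CLH values from -0.47 to 0.68.

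Left out in turn, the Ctrl CLT libraries moved the counts in CLT. With 7 libraries in the fit, 29 collagen genes were lower and 7 higher past the threshold without Ctrl CLT 1, where 39.3% of all genes were lower and 32.9% higher. Without Ctrl CLT 2, 22 were lower and 10 higher, against 24.1% and 31.7% of all genes. With all 8 libraries in 1 fit, 19 were lower and 6 higher, against 20% and 23.7%. The calls thus increased over all genes and not among the collagens alone. With a Ctrl CLT library left out, the spread of the lone one came from the other groups, so these counts do not measure that within Ctrl CLT. Fold changes on log2(RPKM + 1) understate the change of genes near 1 RPKM or less.

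In CLH, the region of the stem cells, the same comparison gave small differences. By limma 0 of the 39 collagen genes passed the threshold, as did 0% of all genes tested, and voom gave 0 as well. At an unadjusted p under 0.05, 10 were higher and 0 lower, where 4.83% of all genes were higher and 2.42% lower. In both cKO CLH libraries 25 were higher than in both Ctrl CLH libraries and 3 were lower, against 19.9% and 18.8% of all genes. All 11 fibrillar genes had a higher mean in cKO CLH, 9 of them without overlap, and the median over the 39 genes was 0.16 beside -0.01 over all genes.

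Genes of types XI, IX and I had the largest positive values in CLH. *Col11a2* averaged 91.7 RPKM in cKO CLH and 57.4 in Ctrl CLH (log2 fold change of 0.68 with SE 0.17 and adjusted p = 0.69). *Col9a3* averaged 79.5 and 51.6 (log2 fold change of 0.62 with SE 0.15 and adjusted p = 0.69), *Col1a1* 1852 and 1323 (log2 fold change of 0.49 with SE 0.17 and adjusted p = 0.69), and *Col9a2* 153 and 113 (log2 fold change of 0.44 with SE 0.08 and adjusted p = 0.69). *Col6a5* was the member furthest in the other direction, at 2.13 against 3.31 (log2 fold change of -0.47 with SE 0.23 and adjusted p = 0.71). None of these passed the threshold.

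Whether the cKO effect differed by region was tested as an interaction term in a fit of the 8 libraries, whose values are the log2 fold change in CLT minus that in CLH. The fit took a common spread for all groups, though the Ctrl CLT libraries differed most (median log2 difference of 0.404 against 0.0922 to 0.113). Its adjusted p, here and for the lists below, may thus be too small. For 15 collagen genes the effect was more negative in CLT, and for 4 more positive, where 9.58% and 8.05% of all genes passed in these directions. The largest was *Col11a2* (difference of -5.90 with SE 0.44 and adjusted p = 0.0019), followed by *Col9a2* (difference of -5.88 with SE 0.69 and adjusted p = 0.007) and *Col9a3* (difference of -5.08 with SE 0.38 and adjusted p = 0.0019). *Emid2* had the smallest adjusted p (difference of -4.65 with SE 0.20 and adjusted p = 0.00038). Type I differed in *Col1a1* (difference of -1.99 with SE 0.26 and adjusted p = 0.0091), whereas *Col1a2* did not pass (difference of -0.37 with SE 0.19 and adjusted p = 0.2). *Col3a1*, *Col6a6*, *Col14a1* and *Col15a1* were the 4 with a more positive effect in CLT. Fibrillar genes made up 6 of the 15, namely *Col1a1*, *Col5a2*, *Col11a1*, *Col11a2*, *Col24a1* and *Col27a1*.

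The regions were compared within each genotype. This sets pieces of dissected tissue side by side, which held mesenchyme too, and not stem cells against their progenies. In Ctrl, 0 of the 39 passed by limma, against 0.00707% of all genes, and 0 by voom. At an unadjusted p under 0.05, 1 was higher in CLT and 4 lower, against 4.15% and 9% of all genes. Without overlap 5 were higher and 17 lower, against 15.2% and 36.8% of all genes. The median was -0.28 beside -0.13 over all genes.

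Among members whose groups did not overlap, the largest differences in Ctrl were those of *Col8a2* (log2 fold change of -2.26 with SE 0.83 and adjusted p = 0.38), *Col22a1* (log2 fold change of -1.70 with SE 0.58 and adjusted p = 0.37), *Col6a5* (log2 fold change of -1.19 with SE 0.36 and adjusted p = 0.35), *Col9a2* (log2 fold change of -1.11 with SE 0.61 and adjusted p = 0.48) and *Col24a1* (log2 fold change of -0.97 with SE 0.48 and adjusted p = 0.45). All 5 were lower in both Ctrl CLT libraries than in both Ctrl CLH libraries. The 1 gene higher at an unadjusted p, named after its values were seen, was *Col6a4* (log2 fold change of 0.96 with SE 0.24 and adjusted p = 0.33). The Ctrl CLT libraries moved these counts. Without Ctrl CLT 1, 6 collagen genes were lower in CLT past the threshold and 5 higher, near the 18.7% and 10.3% of all genes. Without Ctrl CLT 2, 27 were lower and 4 higher, against 40.2% and 20.1% of all genes.

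In cKO, where both groups were tight, 35 of the 39 passed, 29 lower in CLT and 6 higher, against 45.1% and 28.9% of all genes. The median was -1.27 beside -0.18 over all genes, and -1.05 beside 0.02 with median-of-ratios scaling, under which 28 collagen genes were lower and 6 higher while the split over all genes turned from 6384 lower and 4084 higher to 4884 lower and 5270 higher. *Col9a2* showed the largest difference (log2 fold change of -6.99 with SE 0.09 and adjusted p = 2e-10), then *Col11a2* (log2 fold change of -5.79 with SE 0.10 and adjusted p = 1.1e-09), *Col9a3* (log2 fold change of -5.69 with SE 0.12 and adjusted p = 2.3e-09) and *Emid2* (log2 fold change of -5.32 with SE 0.11 and adjusted p = 2.8e-09). The 6 genes higher in cKO CLT were *Col15a1* (log2 fold change of 2.21 with SE 0.10 and adjusted p = 1.8e-07), *Col14a1* (log2 fold change of 1.70 with SE 0.09 and adjusted p = 7.7e-07), *Col6a6* (log2 fold change of 1.35 with SE 0.10 and adjusted p = 5.4e-06), *Col3a1* (log2 fold change of 1.01 with SE 0.11 and adjusted p = 4.7e-05), *Col5a3* and *Col20a1* (log2 fold changes 0.89 and 0.53).

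The other 25 genes lower in cKO CLT than in cKO CLH ran from *Col27a1* (log2 fold change -4.72) to *Col4a6* (-0.33, adjusted p = 0.017). Type I was among them, with *Col1a1* at -2.13 and *Col1a2* at -0.53 (adjusted p = 1.3e-06 and 0.002), as were type V (*Col5a1* -0.95, *Col5a2* -2.06), type VI (*Col6a1* -1.27, *Col6a2* -1.38, *Col6a3* -0.93) and type IV (*Col4a1* -0.68, *Col4a2* -0.81). *Col13a1*, *Col18a1*, *Col28a1* and *Col4a5* were the 4 genes that did not pass. The comparison of regions in cKO shares its cKO CLT libraries with that of genotypes in CLT.

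Collagen chains are hydroxylated, folded, exported, trimmed and crosslinked by dedicated enzymes, and a list of 35 such genes was read beside the collagens. Of the 33 tested in CLT, 2 fell in cKO and 0 rose, against 1.68% and 0.0777% of all genes. Without overlap 27 were lower and 4 higher, against 35.1% and 37.2% of all genes, and the median log2 fold change was -1.004. *Plod2*, a lysyl hydroxylase that prepares crosslinks, stood at 134 and 228 RPKM in Ctrl CLT, 7.65 and 6.31 in cKO CLT, against 224 and 219 for Ctrl CLH and 257 and 206 for cKO CLH (log2 fold change -4.46, adjusted p = 0.031). *P4ha2*, a subunit of prolyl 4-hydroxylase, stood at 71.4 and 78.8 RPKM in Ctrl CLT, 10.7 and 10.7 in cKO CLT, against 89.6 and 72.2 for Ctrl CLH and 101 and 93.2 for cKO CLH (log2 fold change -2.70, adjusted p = 0.021). Both genes were far lower in the cKO CLT libraries than in any other.

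By step, all 13 tested genes of hydroxylation and sugar transfer were lower in cKO CLT without overlap. In folding and export 7 of 8 were lower and 1 higher. In propeptide cleavage 4 of 7 were lower and 1 higher, and in crosslinking 3 of 5 were lower and 2 higher. Over all genes 35.1% were lower and 37.2% higher without overlap. *Serpinh1*, the collagen chaperone HSP47, stood at 222 and 372 RPKM in Ctrl CLT, 70.4 and 74.9 in cKO CLT, against 422 and 429.8 for Ctrl CLH and 463 and 479.7 for cKO CLH. In the interaction test 21 of the 33 had a more negative cKO effect in CLT and 0 a more positive one, against 9.58% and 8.05% of all genes. In CLH 0 passed, with a median of 0.07. Between the regions in cKO 27 were lower in CLT and 2 higher, against 45.1% and 28.9% of all genes.

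Of 22 partners of collagen, 3 fell in cKO CLT and 0 rose, against 1.68% and 0.0777% of all genes, and 16 were lower without overlap and 3 higher, against 35.1% and 37.2%, with a median of -1.37. *Fmod*, a small proteoglycan on fibrils, stood at 95.8 and 228 RPKM in Ctrl CLT, 8.15 and 7.68 in cKO CLT, against 181 and 160.0 for Ctrl CLH and 183 and 181 for cKO CLH (log2 fold change -4.06, adjusted p = 0.049). *Mrc2*, a receptor that takes up collagen, stood at 36.6 and 62.3 RPKM in Ctrl CLT, 4.40 and 4.64 in cKO CLT, against 71.3 and 62.9 for Ctrl CLH and 79.7 and 81.4 for cKO CLH (log2 fold change -3.14, adjusted p = 0.043). *Mmp9*, a protease of denatured collagen made by osteoclasts, stood at 10.6 and 18.6 RPKM in Ctrl CLT, 0.375 and 0.456 in cKO CLT, against 28.6 and 28.4 for Ctrl CLH and 27.5 and 31.0 for cKO CLH (log2 fold change -3.42, adjusted p = 0.042). Between the regions in cKO 16 partner genes were lower and 4 higher, against 45.1% and 28.9% of all genes. In the interaction test 9 were more negative and 1 more positive, against 9.58% and 8.05%. The 3 that were higher in cKO CLT without overlap, named after their values were seen, were the small proteoglycans *Aspn*, *Kera* and *Prelp*. In CLH 0 of the partners passed, with a median of -0.01.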

How the data were processed

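RNA-seq libraries of CLH and CLT tissue from *Med1* cKO and Ctrl mice were grouped by their sample titles, with 2 libraries in each of 4 groups. Per the study's methods and the submitters' processing notes, the authors made TruSeq v2 libraries with paired reads, checked them with FastQC 0.72, trimmed them with Trim Galore 0.4.3.1, aligned them to mm10 with STAR 2.6.0b-1 and counted reads per gene with featureCounts 1.6.3. They name DESeq2 for their own tests. The deposited values are RPKM, reads scaled by the authors to gene length and library size. The annotation and strand setting were not given in the sources used here.

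RPKM times gene length came in whole steps for 100% of the values checked (tolerance 0.01 reads), which gave the reads behind each value and the totals by which the RPKM were scaled, 26591612 to 34420180 reads per library. The number of reads limits the precision of low values, and these are counting errors only. No 2 libraries of a group held the same values throughout, and the chi-square of their reads per degree of freedom was 8.30 to 270.

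log2(RPKM + 1) was tested with limma 3.58.1 (R 4.3.3, eBayes with a variance trend) for the 14148 genes with at least 1 RPKM in at least 2 of the 8 libraries, calling genes at a Benjamini-Hochberg adjusted p under 0.05. Each comparison used its own 4 libraries, and the interaction all 8. Untested members were *Col10a1*, *Col19a1*, *Col4a3* and *Col4a4*. The scripts were tested on simulated data. Alternatives were a pseudocount of 0.1, median-of-ratios scaling, no filter on low values, a replicate block, voom on the recovered reads, all 8 libraries in 1 fit and each library left out in turn. In the last, the fit held the 7 remaining libraries, and a lone library was assumed to vary like the other groups.

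The members and lists (collagen biosynthesis, collagen partners and markers of 10 tissues) were chosen with earlier results of these data known. The value of 1 listed marker gene is not reported here. Every library's RPKM was given for the 2 highest members of each class, the chains of types I, III, IV and VI and every member past the threshold in a comparison. Fold changes with errors were given for members past the threshold, or for the 5 largest differences without overlap where fewer than 3 passed, and further ones after the values were seen. All 8 columns of RPKM were used and 0 set aside. Exon structure came from GENCODE M21 and promoter windows from RefSeq.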

Additional observations from a re-analysis of the deposited data

Results flagged for a closer look

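For 19 collagen genes the cKO effect differed between CLT and CLH, by the interaction test over all 8 libraries (limma, adjusted p under 0.05 over all genes tested). The values are log2 effects in CLT minus those in CLH. They were -5.90 for *Col11a2*, -5.88 for *Col9a2*, -5.08 for *Col9a3*, -4.65 for *Emid2*, -4.20 for *Col27a1* and -4.12 for *Col11a1*, all genes under 2 RPKM in cKO CLT. They were -2.67 for *Col23a1*, -2.40 for *Col24a1*, -2.39 for *Col12a1*, -2.00 for *Col6a4*, -1.99 for *Col1a1* and -1.96 for *Col5a2*. Smaller differences were -1.27 for *Col7a1*, -1.01 for *Col6a2* and -0.669 for *Col4a2*. The effect was more positive in CLT by 0.846 for *Col3a1*, 1.28 for *Col6a6*, 1.35 for *Col14a1* and 1.58 for *Col15a1*. The Ctrl CLT libraries, which differ from each other more than those of the other groups, enter every one of these values. As the fit takes a common spread for all groups, the adjusted p may be too small. The summed skeletal muscle and odontoblast and bone markers also differed between cKO CLT and the other groups, and their part was not tested.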

How the results depend on the processing

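No gene past the threshold in the main fit changed its direction under the alternatives tried. Among genes not past it in the main fit of CLT, *Col4a6* turned positive with a pseudocount of 0.1 (0.004), median-of-ratios scaling (0.032) and voom (0.075). With 1 library left out it ran from -0.485 to 0.452, *Col6a3* from -0.363 to 0.504, *Col16a1* from -0.392 to 0.237, *Col5a1* from -0.489 to 0.032, *Col4a5* from -0.091 to 0.578 and *Col13a1* from -0.455 to 0.014. Between the regions in Ctrl *Col9a1* was 0.653 and *Col25a1* 0.684 without Ctrl CLT 1, and -1.554 and -1.021 without Ctrl CLT 2. In CLT, the number of collagen genes lower in cKO was 5 in the main fit, where 237 of all genes were lower. It was 0 without a filter (18 of all genes), 0 with voom (0), 14 with a replicate block (856) and 19 with all 8 libraries in 1 fit (2831). The number higher was 0 in the main fit (11 of all genes), 2 with the block (888) and 6 with all 8 libraries (3352). The median in CLT was -1.04 with a pseudocount of 0.1 and -0.997 with voom. For CLT against CLH in Ctrl the number higher became 1 with all 8 libraries, where 346 of all genes were higher. In cKO that median was -1.59 with a pseudocount of 0.1, -1.05 with median-of-ratios scaling, -0.95 without a filter and -1.58 with voom. The number with a more negative effect in CLT than in CLH fell from 15 to 9 without a filter, and over all genes from 1355 to 947. With each library left out in turn, cKO against Ctrl in CLT gave 3 to 10 higher, 11 to 29 lower and a median of -0.94 to -0.45. CLT against CLH in Ctrl gave 0 to 5 higher, 0 to 27 lower and -0.62 to -0.036. CLT against CLH in cKO gave 4 higher, 22 to 24 lower and -1.32 to -1.12, and the interaction 0 to 6 higher, 4 to 28 lower and -1.15 to -0.69. cKO against Ctrl in CLH gave 0 in each direction and 0.12 to 0.20. Except in this last comparison, the calls over all genes moved as well with the library left out. The causes were not tested. The labels do not pair the libraries, though per the study they came from 2 litters. Deviations of same-numbered libraries correlated at 0.31 between the regions in cKO and at 0.195 between those in Ctrl. Over the other pairs of groups the correlation was between -0.19 and 0.066. The main fits took the libraries as independent, so a tie by litter or animal was not modelled there. The replicate block gave 3 more positive and 11 more negative in the interaction, against 513 and 935 of all genes. Between the regions in cKO it gave 6 higher and 31 lower, against 4485 and 6956 of all genes. In CLH it gave 0, as over all genes. Between the regions in Ctrl it gave 0, where 5 of all genes were higher and 0 lower. Of single-gene values under the other alternatives, 530 kept their side of the threshold, 33 passed it and 33 lost it. With a library left out 280 kept it, 83 passed it and 118 lost it, beside the turned values above. Values under about 20 reads, as for *Col9a1*, *Col22a1* and *Col6a4* in cKO CLT, are limited by depth.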
